A study of Mus musculus with 6 samples.

Results

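The 7 mature miRNAs described here are encoded within the Hox gene clusters: both arms of miR-10a and of miR-10b, miR-196a-5p, miR-196b-5p and miR-615-3p. They were chosen by name. The rule used no measured values, but earlier results of these data were known when it was made. All 7 were found among the 1966 mature miRNAs of the table. A mature miRNA is a short RNA cut from a hairpin, with a 5p and a 3p product named for the arm of the hairpin. It guides silencing of mRNAs mainly through its seed, bases 2 to 8. Hox clusters are runs of neighbouring genes for transcription factors that set position along the body axis, and the miRNAs between these genes are often transcribed along with their neighbours. miR-10 miRNAs are known for Hox mRNA targets and, in endothelial cells, for restraining inflammatory signalling (miR-10a). miR-196 is known for cleaving the Hoxb8 mRNA, and miR-615 lies within Hoxc5.

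The hearts came from male wild-type mice (genotype WT) 8 weeks after surgery. In the TAC group, 3 mice (animals 29, 78 and 81) had transverse aortic constriction, a suture around the aorta that loads the left ventricle. In the sham group, 3 mice (animals 47, 68 and 69) were operated on without the constriction. The labels name no strain, age or degree of constriction. Each mouse gave 1 library of heart tissue, a mixture of cell types, in which fewer cells of a type and less RNA per cell cannot be told apart.

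The sequences show which members can be told apart by reads and which share a seed. They are the RefSeq mature sequences (GRCm38.p6, the assembly of the table's coordinates), found for all 7 members, with the seed in capitals.
miR-10a-5p: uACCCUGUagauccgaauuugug
miR-10b-5p: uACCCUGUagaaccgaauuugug
miR-10a-3p: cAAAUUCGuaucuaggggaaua
miR-10b-3p: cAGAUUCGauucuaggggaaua
miR-196a-5p: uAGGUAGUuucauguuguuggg
miR-196b-5p: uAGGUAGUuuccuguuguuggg
miR-615-3p: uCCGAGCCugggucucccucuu

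The 5p arms of miR-10a and miR-10b share the seed ACCCUGU and differ at 1 of 23 bases (U12A, counted from the 5′ end, with the miR-10a base first). miR-196a-5p and miR-196b-5p share the seed AGGUAGU and differ at 1 of 22 bases (A12C, miR-196a base first). In both pairs the difference lies outside the seed, and no other mature miRNA of the RefSeq table carried either seed. The 3p arms of miR-10a and miR-10b differ at 3 of 22 bases (A3G, U9A and A10U), of which A3G lies in the seed, so these arms do not share one. The seed of miR-615-3p was found in no other mature miRNA of that table.

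miR-10a-5p lies at chr11:96317186-96317208 on the plus strand, 1059 bases upstream of Hoxb4 and 11065 bases downstream of Hoxb5, in no annotated gene of its strand other than its own hairpin. miR-10b-5p lies at chr2:74726074-74726096, plus strand, in introns of Hoxd3 and Hoxd4. The single miR-196a-5p row covers 2 places. These are chr11:96265187-96265208, 6249 bases upstream of Hoxb9, and chr15:102973365-102973386, in an intron of a long Hoxc5 transcript and 3053 bases upstream of Hoxc9. miR-196b-5p, at chr6:52230129-52230150 on the minus strand, overlaps an exon of a Hoxa9 transcript 1047 bases downstream of Hoxa10. miR-615-3p, at chr15:103014969-103014990 on the plus strand, is in an intron of Hoxc5. No member overlapped a miRNA row on the opposite strand.

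**Figure D1:**
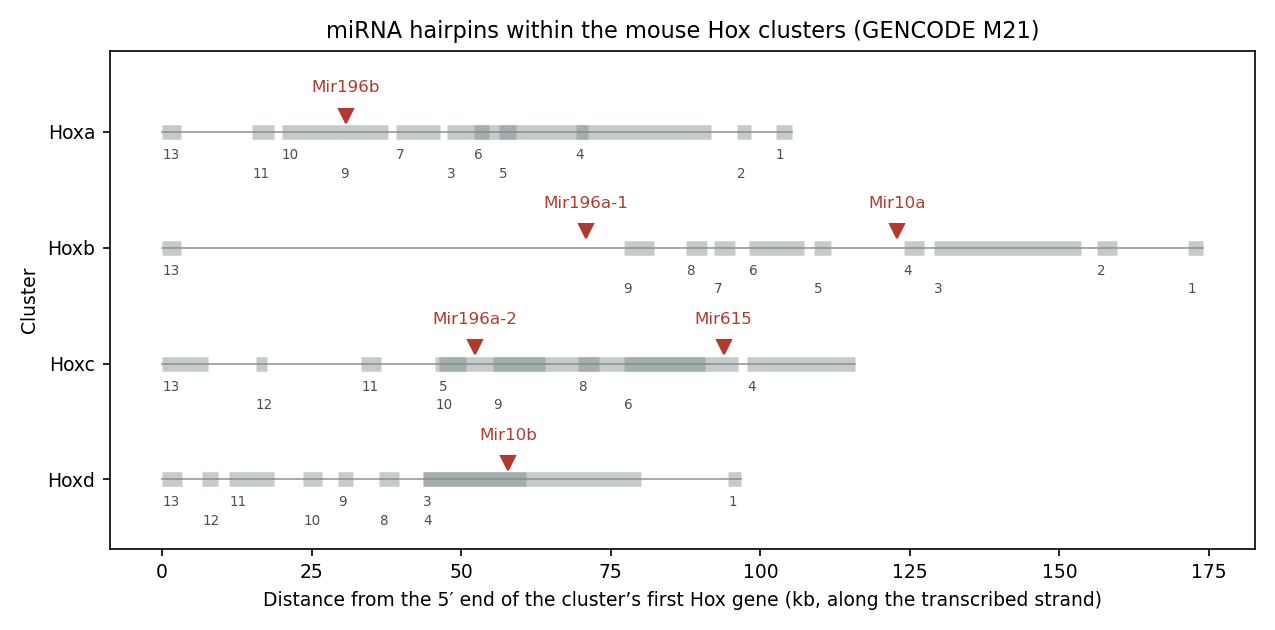
Positions of the 6 hairpins of the members (red triangles) in the 4 mouse Hox clusters. Each row is a cluster, grey bars are Hox genes with their paralogue numbers below, overlapping bars are darker, and the horizontal axis is the distance in kb from the 5′ end of the first Hox gene along the transcribed strand; Mir10a lies just before Hoxb4 and Mir10b within Hoxd3 and Hoxd4.

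Total counts ranged from 1226187 to 1795831 in TAC libraries and from 1818725 to 3509001 in sham libraries. Levels are CPM, counts per 1000000 of the library total, scaled by TMM factors, which align libraries on the bulk of their miRNAs. The factors were 0.921, 0.908 and 0.868 in TAC 29, 78 and 81, against 1.11, 1.10 and 1.13 in sham 47, 68 and 69. Neither factors nor totals overlapped between the groups, so the scaling itself raises TAC levels relative to sham. A miRNA is called higher or lower when edgeR's quasi-likelihood test, adjusted over all 354 tested miRNAs by the Benjamini-Hochberg method, gives a p under 0.05. Cardiomyocyte miRNAs (miR-1a-3p and 4 others) marked the tissue as heart muscle, with summed levels of 274726 to 327392 CPM in TAC and 152337 to 183849 CPM in sham, and 5 of 5 were called higher. The smooth muscle list held 59519 to 62551 CPM in TAC and 34626 to 43244 CPM in sham (3 of 4 called higher). The mesenchymal and fibroblast list held 16558 to 17145 CPM in TAC and 19004 to 30729 CPM in sham (5 of 5 called lower). Most of this level came from miR-199a-3p (mean 10088 CPM in TAC, 14577 CPM in sham) and miR-199b-3p (5043 and 7288 CPM). Both had a log2 fold change of -0.5310, so these rows may hold the same reads. The 5 calls are therefore not 5 separate measurements, and the summed level may count reads more than once. The leukocyte list held 335 to 352 CPM in TAC and 213 to 230 CPM in sham, with 1 of 4 tested called higher and miR-142a-3p at 0 in every library. The red blood cell list held 1641 to 3062 CPM in TAC and 999 to 1164 CPM in sham, with 1 of 3 tested called higher and miR-486a-5p at 0 in every library. Of the endothelial list, 1 of 3 could be tested and was not called, and both arms of miR-126a were at 0 in every library. These zero rows each overlap a row on the opposite strand and were not read as absence. The part of these lists in the results on Hox-cluster miRNAs was not tested.

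miR-10a-5p was the most abundant Hox-cluster miRNA and rose in TAC hearts. miR-10b-5p, with the same seed, did not pass the test, and neither did miR-10a-3p or miR-615-3p. The other 3 members, miR-10b-3p and the miR-196 pair, were near the limit of detection in all 6 hearts and were too low to test. The count of 1 called member of 4 tested stands beside 30.5% of all tested miRNAs called in either direction and 19.2% called higher. That balance depends on the scaling: with TMM, 68 miRNAs were called higher and 40 lower, while scaling to library totals gave 25 higher and 102 lower, and the RLE method gave 50 higher and 56 lower. No tested member was called lower by edgeR with TMM, DESeq2 or limma-voom after the low-count filter (0 also at an unadjusted p under 0.05). Without that filter, edgeR gave miR-615-3p a log2 fold change of -0.74 (edgeR unadjusted p = 0.0266, adjusted p = 0.171). Of all tested miRNAs, 11.3% were called lower by edgeR with TMM, 14.2% by DESeq2, 11.6% by limma-voom and 28.8% by edgeR with library totals. The median log2 fold change was 0.23 over the 4 tested members and 0.07 over all 354 tested miRNAs.

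miR-10a-5p was at 2286, 2089 and 1301 CPM in TAC 29, 78 and 81, against 1229, 1256 and 951 CPM in sham 47, 68 and 69. All 3 TAC hearts were above all 3 sham hearts, but TAC 81 lay close to the upper sham hearts and well below the other TAC hearts. miR-10a-5p was the 1 of 4 tested members whose groups did not overlap, beside 51.4% of all tested miRNAs in either direction and 29.4% in this one. The means were 1892 ± 521 CPM in TAC and 1146 ± 169 CPM in sham (SD, n = 3 each). The log2 fold change was 0.72 ± 0.20 (standard error), a 1.65-fold rise with a 95% interval of 0.27 to 1.18 on the log2 scale (edgeR adjusted p = 0.0283). Of the 68 miRNAs called higher, 27 had a larger change. By count, miR-10a-5p ranked between 47 and 60 in the TAC libraries and between 57 and 64 in the sham libraries.

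The call of miR-10a-5p depended on the scaling and on single mice. As CPM of the library total, without TMM factors, it was at 2105, 1896 and 1130 in TAC 29, 78 and 81, against 1370, 1376 and 1073 in sham 47, 68 and 69. On that scale TAC 81 lay below 2 of the 3 sham hearts, and the groups overlapped. The log2 fold change with library totals was 0.43 (edgeR adjusted p = 0.144), where the median of all tested miRNAs was -0.23. Relative to the median of all tested miRNAs, the change of miR-10a-5p was 0.65 to 0.66 with TMM, RLE size factors, upper quartile factors, library totals and totals without the 5 most abundant miRNAs. Scaling shifts all miRNAs by nearly the same amount, so such a gap stays nearly fixed for any miRNA. It is a description and no test of whether the call holds under other scalings. Leaving out TAC 29, TAC 78 or sham 69 gave log2 fold changes of 0.56, 0.64 and 0.59 (edgeR adjusted p = 0.0876, 0.103 and 0.0636). Leaving out TAC 81 gave 0.93 (edgeR adjusted p = 0.00602).

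miR-10b-5p was at 578, 595 and 392 CPM in TAC 29, 78 and 81, against 490, 410 and 300 CPM in sham 47, 68 and 69. TAC 81 was below sham 47 and sham 68, so the groups overlapped. The means were 522 ± 113 CPM in TAC and 400 ± 95.7 CPM in sham (SD, n = 3 each). The log2 fold change of 0.38 ± 0.21 did not pass (edgeR adjusted p = 0.19), and its 95% interval of -0.09 to 0.86 includes the estimate for miR-10a-5p. With both 5p arms summed to 1 row, as near-identical reads could be assigned to either, the log2 fold change was 0.64 (edgeR adjusted p = 0.0388).

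**Figure D2:**
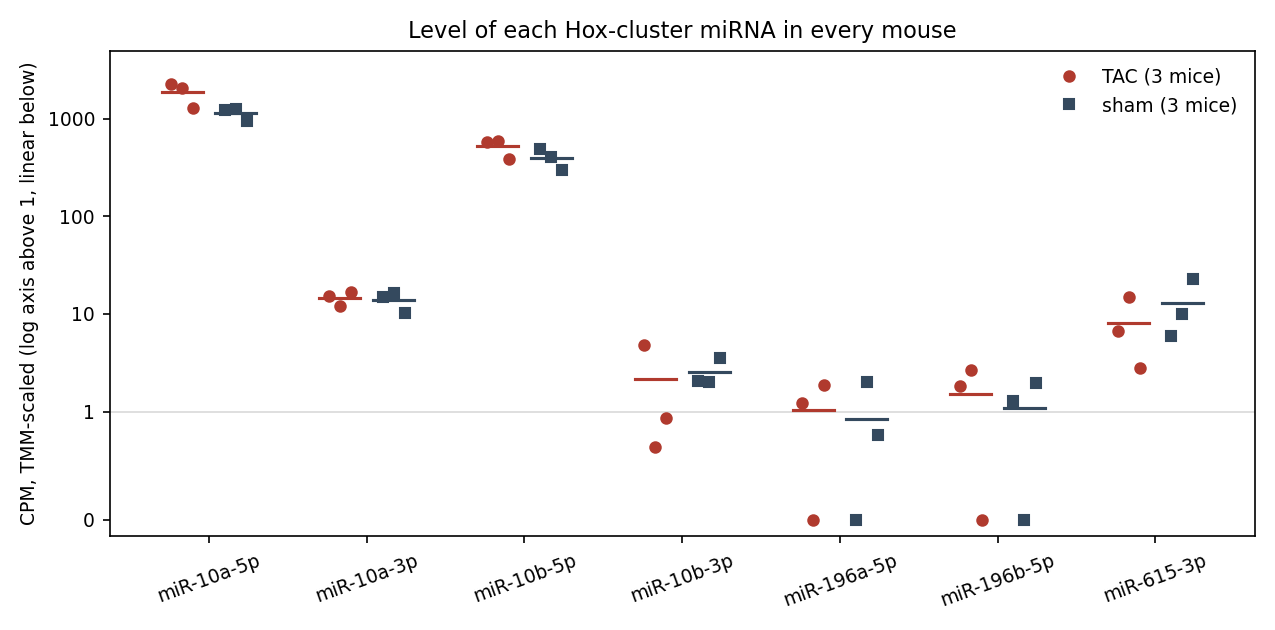
TMM-scaled CPM of each Hox-cluster miRNA in every mouse, with TAC as red circles, sham as dark squares and a line at each group's mean (n = 3 each). The axis is logarithmic above 1 and linear below. The miR-10a-5p points are at 951 to 2286 CPM, and those of both miR-196 rows are at or near 0.

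The balance between the 5p arms does not depend on depth or scaling, since both are counted in the same library. miR-10a-5p made up 79.8%, 77.8% and 76.9% of the summed counts of both in TAC 29, 78 and 81, against 71.5%, 75.4% and 76.0% in sham 47, 68 and 69. All 3 TAC shares were above all 3 sham shares, but most were not clearly apart. The exact binomial 95% intervals of TAC 78 (76.5% to 79.1%) and TAC 81 (74.8% to 78.8%) each overlapped those of sham 68 (73.9% to 76.9%) and sham 69 (74.5% to 77.5%). Only the interval of TAC 29 (78.6% to 81.0%) lay above all 3 sham intervals. Such intervals cover counting error only. The log2 ratio of miR-10a-5p to miR-10b-5p averaged 1.84 ± 0.13 in TAC and 1.54 ± 0.18 in sham (SD, n = 3 each). The difference of 0.31 had a two-sided exact permutation p = 0.1, the smallest that 3 mice against 3 allow, and 0.4 after Benjamini-Hochberg adjustment over the 4 permutation tests made. Without sham 47, the lowest, the difference was 0.20. The ratio itself ranged from 2.51 in sham 47 to 3.96 in TAC 29. Whether some reads were counted in both rows was not tested.

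**Figure D3:**
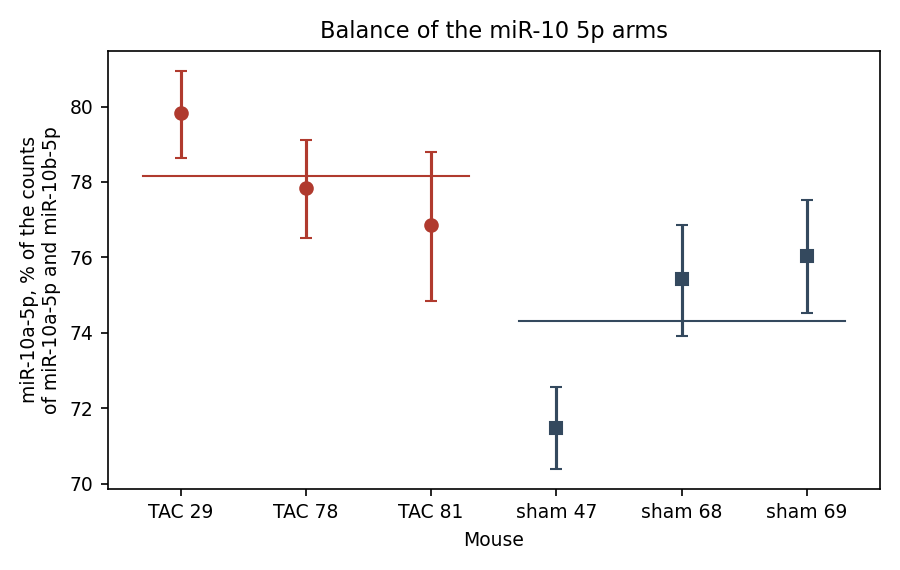
Counts of miR-10a-5p as a percentage of miR-10a-5p and miR-10b-5p together in each mouse, with exact binomial 95% intervals; horizontal lines are the group means and the axis does not start at 0. The TAC points lie between 76.9% and 79.8% and the sham points between 71.5% and 76.0%.

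Both arms of each hairpin are shown in capitals in the RefSeq hairpins below, the 5p arm first, because the counts of the arms differ so widely.
Mir10a: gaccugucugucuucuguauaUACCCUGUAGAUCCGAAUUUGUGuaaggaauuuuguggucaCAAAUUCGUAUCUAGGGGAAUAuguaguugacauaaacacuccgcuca
Mir10b: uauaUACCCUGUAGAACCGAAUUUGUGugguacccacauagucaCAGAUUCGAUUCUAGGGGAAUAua

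miR-10a-3p, the minor arm, had 25, 18 and 18 counts in TAC 29, 78 and 81, against 59, 33 and 26 in sham 47, 68 and 69. It averaged 14.7 ± 2.44 CPM in TAC and 13.9 ± 3.34 CPM in sham (SD, n = 3 each), and the groups overlapped. Its log2 fold change of 0.07 ± 0.27 did not pass (95% interval -0.54 to 0.68, edgeR adjusted p = 0.865), and its sign changed with the scaling. The 3p arm held 0.657%, 0.575% and 1.28% of the counts of the miR-10a arms in TAC 29, 78 and 81, against 1.21%, 1.30% and 1.06% in sham 47, 68 and 69. TAC 81 resembled the sham hearts, while TAC 29 and TAC 78 had the lowest shares. The log2 ratio of the 5p to the 3p arm was 6.94 ± 0.63 in TAC and 6.36 ± 0.15 in sham (SD, n = 3 each, exact permutation p = 0.3, adjusted 0.4).

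miR-10b-3p had 8, 1 and 1 counts in TAC 29, 78 and 81, against 8, 4 and 9 in sham 47, 68 and 69. It did not pass the low-count filter. The log2 ratio of miR-10b-5p to miR-10b-3p was 8.05 ± 1.20 in TAC and 7.22 ± 0.78 in sham (SD, n = 3 each, exact permutation p = 0.4, adjusted 0.4), and the groups overlapped. In TAC 78 and TAC 81 the ratio rests on 1 count of the 3p arm, while that of TAC 29, 6.81, lay within the sham range of 6.33 to 7.82.

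miR-615-3p had 11, 22 and 3 counts in TAC 29, 78 and 81, against 23, 20 and 58 in sham 47, 68 and 69. It averaged 8.08 ± 6.11 CPM in TAC and 12.9 ± 8.77 CPM in sham (SD, n = 3 each), and the groups overlapped, with TAC 81 the lowest heart and sham 69 the highest. The log2 fold change of -0.58 ± 0.62 did not pass (95% interval -1.98 to 0.83, edgeR adjusted p = 0.485). Its sign rested on sham 69, without which the value was 0.12.

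miR-196b-5p had 3, 4 and 0 counts in TAC 29, 78 and 81, against 5, 0 and 5 in sham 47, 68 and 69. With 3 counts taken as the limit for a count of 0, it allows up to 2.82 CPM in TAC 81 and up to 1.51 CPM in sham 68. miR-196a-5p had 2, 0 and 2 counts in TAC 29, 78 and 81, against 0, 4 and 2 in sham 47, 68 and 69. By the same limit the 0 allows up to 2.02 CPM in TAC 78 and up to 0.767 CPM in sham 47, if each read gave 1 count. None of the 6 counts of miR-196a-5p was odd, for a row with 2 places, so its counts and CPM may be 2 times its reads. In that case the limits given for this row are too low. The counting of reads with several places is not given in the sources used here. Over all mice, miR-196a-5p had 10 counts and miR-196b-5p had 17, and neither was tested. Other arms of the same hairpins were barely seen: miR-196b-3p had 1 count in TAC 29 and miR-615-5p 1 in TAC 78, while miR-196a-1-3p and miR-196a-2-3p had 0 in every library.

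By mean level the members ran miR-10a-5p, miR-10b-5p, miR-10a-3p, miR-615-3p, miR-10b-3p, miR-196b-5p and miR-196a-5p, all 22 or 23 bases long. miR-10a-5p was above miR-10b-5p, and miR-10b-5p above miR-10a-3p, in 6 of 6 libraries. miR-10a-3p was above miR-615-3p in 2 of 3 TAC and 2 of 3 sham libraries, and these neighbours did not differ beyond their spread. The same held for the miR-196 rows, with miR-196b-5p above miR-196a-5p in 4 of 6 libraries. All 7 members together held 0.267%, 0.246% and 0.149% of counts in TAC 29, 78 and 81, against 0.194%, 0.186% and 0.146% in sham 47, 68 and 69. These shares overlapped between the groups (difference of 0.0453 percentage points, exact permutation p = 0.3, adjusted 0.4).

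**Figure D4:**
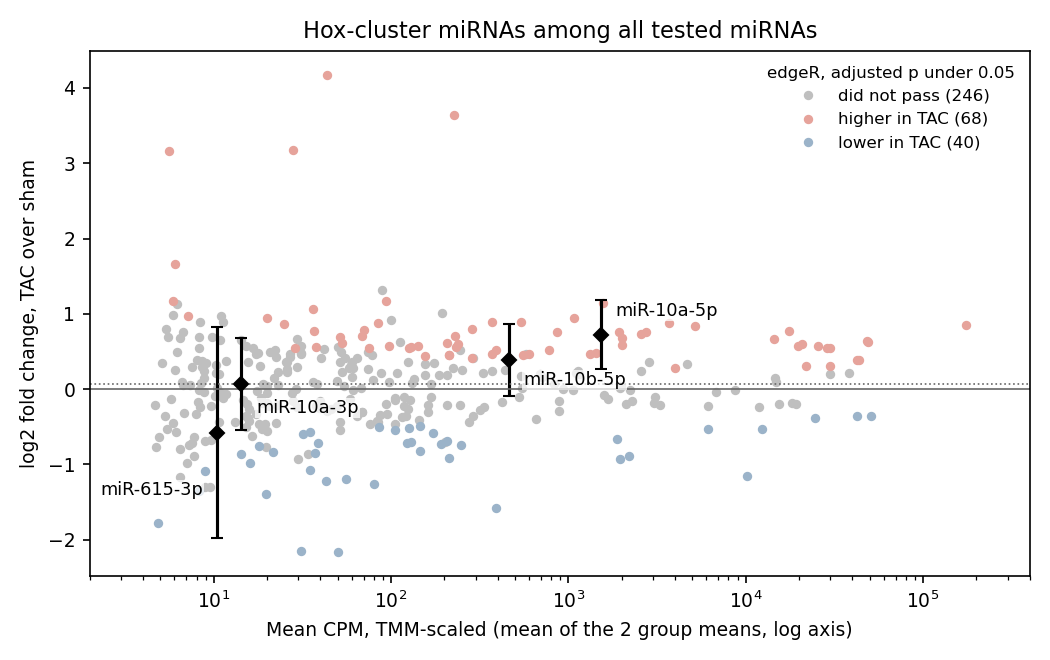
log2 fold change of TAC over sham against mean CPM (log axis) for the 354 tested miRNAs, with the 4 tested Hox-cluster miRNAs as black diamonds with 95% intervals. The dotted line is the median of all tested miRNAs, 0.07; the interval of miR-10a-5p alone among the 4 lies above 0.

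The miR-99 and miR-100 miRNAs resemble miR-10 but lie outside the Hox clusters, and their 5p arms have the seed ACCCGUA. Of 6 rows 4 were tested, 2 were called higher and 1 lower. miR-99a-5p had a log2 fold change of 0.39 ± 0.11 and miR-100-5p of 0.39 ± 0.11 (edgeR adjusted p = 0.0288 for both). miR-99b-3p fell by 0.69 ± 0.12 (edgeR adjusted p = 0.00439). The miR-99a-5p and miR-100-5p rows had nearly the same counts, such as 79309 and 77104 in TAC 29 and 162436 and 158227 in sham 47. Whether they share reads was not tested, so the 2 higher calls may be 1 measurement given 2 times. The numbers called depended on the scaling, with 0 higher and 2 lower under RLE size factors, upper quartile factors, library totals and totals lacking the 5 most abundant miRNAs. The near-identical miR-99a-5p and miR-100-5p rows were not called in those fits, nor when any single mouse other than sham 47 was left out. miR-99b-5p, at -0.20 ± 0.09 with TMM (edgeR adjusted p = 0.111), was called lower in them, at -0.27 with RLE size factors (edgeR adjusted p = 0.0461) and -0.51 with library totals (edgeR adjusted p = 0.00383). Among tested miRNAs outside the 7 members, those whose log2 CPM followed miR-10a-5p most closely over the 6 mice were miR-547-3p (Pearson r = 0.96), miR-362-3p (0.94) and miR-29c-3p (0.92). For miR-10b-5p they were miR-150-3p (0.90), miR-7068-3p (0.88) and miR-362-3p (0.87). The 2 miR-10 5p arms had r = 0.90 with each other. These 6 points share libraries and the group difference, and the values are descriptions only.

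**Figure D5:**
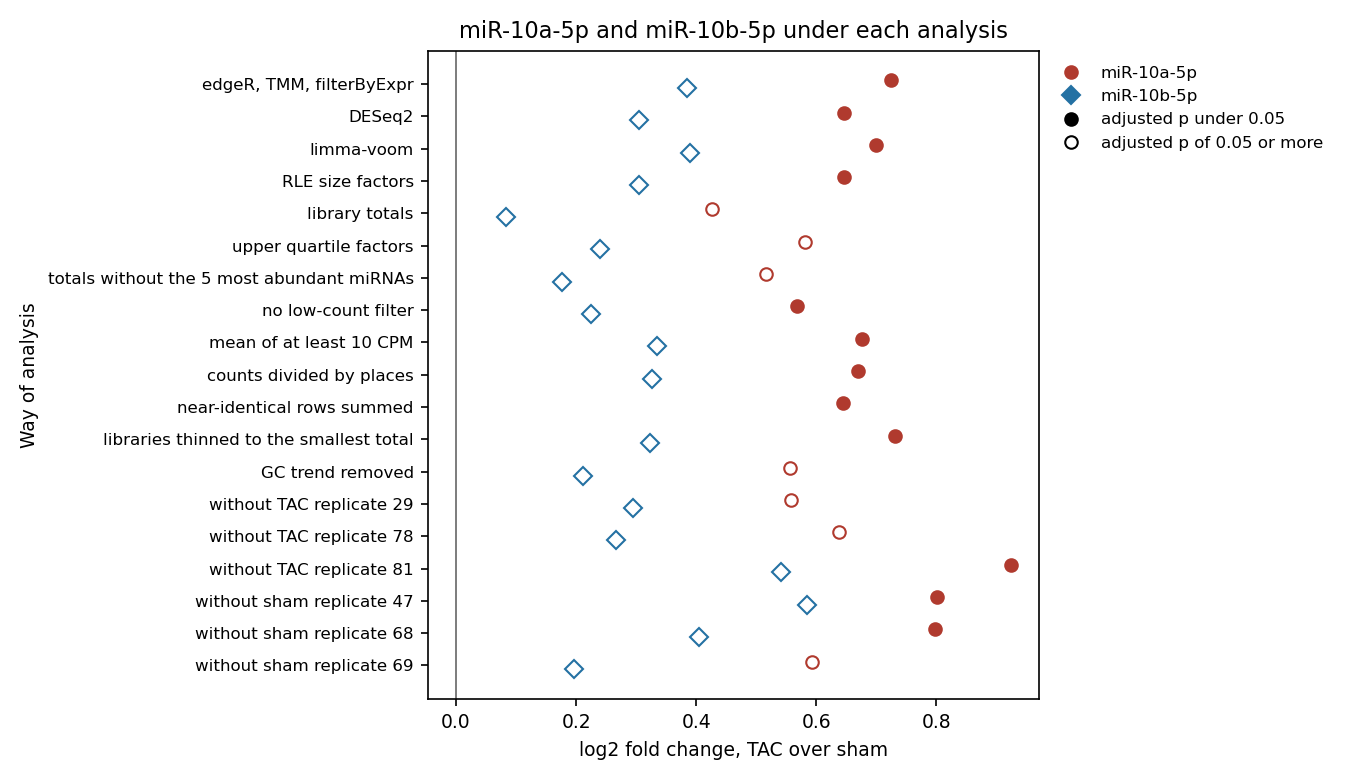
log2 fold change of TAC over sham for miR-10a-5p (circles) and miR-10b-5p (diamonds) under each way of analysis, filled where the adjusted p was under 0.05. With near-identical rows summed, the circle is the sum of both 5p arms. Values for miR-10a-5p run from 0.43 to 0.93 and those for miR-10b-5p from 0.08 to 0.58, with no filled diamond.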

How the data were processed

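The deposited table holds raw counts, with a row for each mature miRNA, its places, and a column for each mouse. HISAT2, StringTie, DESeq2 and build mm10 are named in the submitters' processing notes, without role or version. RNA extraction used a Vazyme kit, per the labels' protocols. No source used here states the counter, adapter trimming or strand setting. Columns were matched to mice by animal number. No libraries of a group were copies (chi-square over its degrees of freedom between 31.6 and 67.8).

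The test was edgeR 4.0.16 (quasi-likelihood, TMM, filterByExpr with its minimum count of 10, no covariate) in R 4.3.3 on all 354 miRNAs that passed, with Benjamini-Hochberg adjustment. The script was tested on simulated data. Ratios used a pseudocount of 0.5 counts, and exact permutation tests scipy 1.17.1. Log2 CPM for likeness used a prior count of 2. Places were annotated with GENCODE M21 (GRCm38). Alternatives were DESeq2 1.42.0, limma-voom (limma 3.58.1), other scalings and filters, counts divided by places, summed near-identical rows, thinned libraries and each mouse left out. A trend with GC content (local regression, span 0.75, 315 of 354 miRNAs with a sequence) was added after the data were seen. The named miRNAs were the members, the other arms of their hairpins, the miR-99 and miR-100 rows and the 3 miRNAs most like each miR-10 5p arm. Members, lists and alternatives were chosen with earlier results of these data known.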

Additional observations from a re-analysis of the deposited data

How the results depend on the processing

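The number of Hox-cluster miRNAs called higher, 1 with edgeR and TMM, was 0 with library totals, with totals lacking the 5 most abundant miRNAs, with upper quartile factors and with the GC trend removed, and 0 to 1 when single mice were left out. It was 1 in 11 of 18 alternatives, DESeq2, limma-voom and RLE size factors among them, counting the fit with the miR-10 5p arms summed (0.64 for the sum). Of all tested miRNAs, 19.2% were called higher with TMM, 16.7% with DESeq2, 20.1% with limma-voom and 14.1% with RLE size factors. The share was 7.06% with library totals, 9.89% with totals lacking the 5 most abundant miRNAs, 11.6% with upper quartile factors and 11.1% with the GC trend removed. It was 3.82% without a low-count filter and 11.9% to 15.5% with 1 mouse left out. The log2 fold change of miR-10a-5p alone stayed above 0 in the 17 other alternatives, between 0.43 and 0.93 (adjusted p = 0.00114 to 0.144), and that of miR-10b-5p in the same 17, between 0.08 and 0.58, with no call. The number of members called lower was 0 throughout, beside 4.81% (without TAC 81) to 28.8% (library totals) of all tested miRNAs. miR-10a-3p, at 0.07, turned to -0.0070 with DESeq2, -0.011 with RLE size factors, -0.24 with library totals, -0.082 with upper quartile factors, -0.14 with totals lacking the 5 most abundant miRNAs, -0.093 without a low-count filter and -0.23 with the GC trend removed, and lay between -0.12 (without sham 69) and 0.19 (without sham 68) with 1 mouse left out. miR-615-3p, at -0.58, lay between -1.31 (without TAC 78) and 0.12 (without sham 69). The cause was not tested. With 1 mouse left out, the log2 ratio difference between the miR-10 5p arms was 0.20 to 0.37, that of the miR-10a arms 0.36 to 0.94 and that of the miR-10b arms 0.25 to 1.45. The difference in summed share was 0.0224 to 0.0812 percentage points. No paired analysis was possible because the groups share no animal numbers. Depth limits miR-10b-3p and miR-196: 3 counts correspond to 0.767 to 2.82 CPM.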
